A study of Mus musculus with 9 samples.

Results

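The genes described here make cholesterol and fatty acids or control their making. They were chosen by name as 28 symbols of the mevalonate and cholesterol pathway, of its SREBP control and of fatty acid synthesis, and all 28 were found by Ensembl identifier among the 35275 genes of the count table. Bulk RNA-seq covered whole anterior segments of newborn mouse eyes (postnatal day 0), that is cornea, iris, ciliary body and drainage tissue without the lens. There were 9 libraries, 3 of wildtype (Col4a1+/+) and 6 of mutant tissue (Col4a1+/G1344D), the latter with a missense change in the alpha-1 chain gene of type IV collagen on 1 allele. Every sample pooled 4 eyes from 2 mice, so p-values measure the spread between pools, and the sources used here do not give strain or sex.

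Cells build cholesterol from acetyl-CoA. The mevalonate steps give isoprenoid diphosphates, these are joined into squalene, squalene is closed into lanosterol, and a long series of demethylations, reductions and shifts of double bonds turns lanosterol into cholesterol. When membranes of the endoplasmic reticulum run low in sterol, the escort protein Scap carries the membrane-bound factors Srebf1 and Srebf2 (the SREBPs) to the Golgi, where they are cut and released to switch on genes of the whole pathway. Insig proteins hold Scap back when sterol is plentiful. Srebf2 acts mostly on sterol genes, and Srebf1 acts strongly on fatty acid genes. In the anterior segment this lipid supply serves membrane growth, and the cornea is among the tissues affected by inherited faults of sterol handling.

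The libraries held between 25995340 and 35306935 counts, and each of the 28 genes passed the filter on low counts, with at least 197 counts in every library. Libraries differed in the share of counts on Gm42418, a gene model that collects reads of ribosomal RNA. It was 4.11% to 6.91% in wildtype 1 and mutants 1, 3, 4, 5 and 6, and 0.0663% to 0.0708% in wildtypes 2 and 3 and mutant 2, so this split is partly confounded with genotype. Col4a1 itself rose from 625 ± 92.7 to 1030 ± 82.7 CPM (counts per fixed library size, scaled by TMM; log2 0.72, edgeR adjusted p = 0.000876), and since a missense change need not alter transcript level this does not check the labels. Markers of corneal epithelium, stroma and endothelium and of ciliary and iris epithelium were present. Of 6 lens markers, Crygc, Crybb1 and Mip averaged under 1 CPM, and so did the retina markers Crx, Rcvrn and Pou4f2. The other lens markers were Cryab, at 206 CPM in wildtype and 186 in mutant, Bfsp1 (6.2 and 4.58) and Cryaa (1.53 and 2.38). The lens list summed to 209 to 220 CPM in wildtype and 173 to 202 in mutant, without overlap, and held 0 calls (edgeR).

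In wildtype tissue the order of levels, given as CPM per kilobase of exon so that genes can be compared, was led by the fatty acid gene Scd2, a stearoyl-CoA desaturase, at 143 ± 8.16 (SD, n = 3). Insig1, at 46.2 ± 4.5, and the ATP-citrate lyase gene Acly, at 41.9 ± 2.05, came next and did not differ beyond their spread. Hmgcs1, the HMG-CoA synthase gene, stood at 33.7 ± 0.422, Srebf2 at 28.5 ± 1.83 and Cyp51 at 27.2 ± 1.82, the last pair again within their spread. At the low end stood Tm7sf2 at 4.92 ± 0.923, Hsd17b7 at 3.55 ± 0.512 and Lss at 2.57 ± 0.177 CPM per kilobase. Exon length here is the union over all annotated transcripts, which lowers the value of a gene with long rare isoforms, and Lss is one of the longest of the set at 10787 bases.

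Genes for sterol enzymes were lower in the mutant at several consecutive steps. Of the 19 enzyme genes from Acat2 to Dhcr7, 9 fell and 0 rose in edgeR's quasi-likelihood test (adjusted p under 0.05 over 15825 genes, with 10 enzymes at an unadjusted p under 0.05). Over all tested genes edgeR called 9.47% lower and 9.7% higher. DESeq2 and limma-voom each called 10 of the genes described here lower, and none of the 19 enzymes higher. These tools also called more of all tested genes lower, 12.4% with DESeq2 and 14.8% with limma-voom. The median log2 fold change of the 19 was -0.28, against 0 for all tested genes, and 17 of them had a negative value, as did 50.1% of all tested genes. Their CPM, summed over the 19, was 1130, 1080 and 1060 in wildtypes 1 to 3 and ran from 846 to 977 in the mutants. The SREBP control genes and the sterol transport gene Stard4 held no call, and 1 fatty acid gene, Fasn, rose. Of the 28 genes, 9 therefore fell (32.1%) and 1 rose (3.57%). The mutant libraries lay wholly below the wildtype libraries for 9 of the 28 genes and wholly above for 1, where 11.2% and 10.8% of all tested genes did so.

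**Figure D1:**
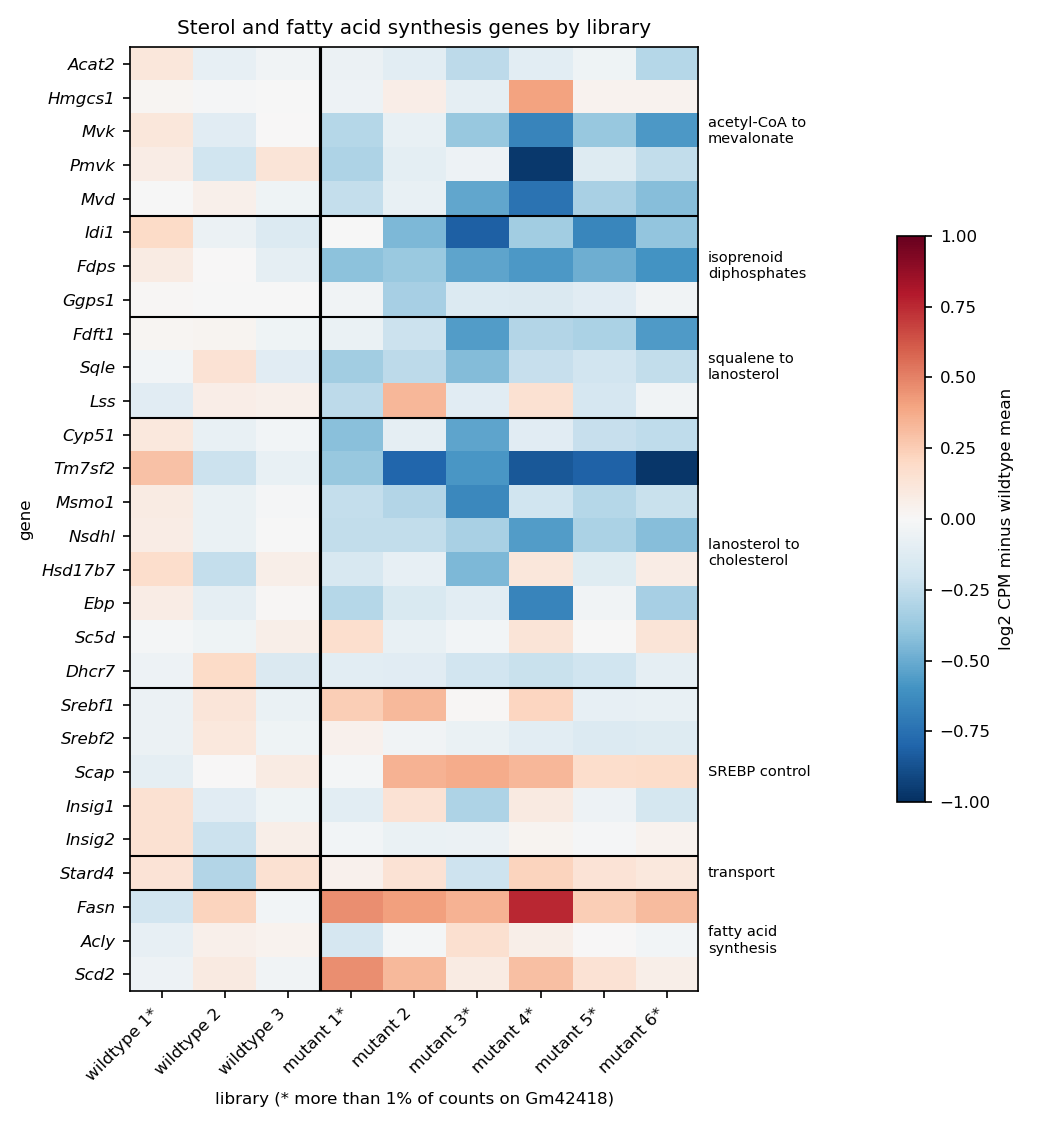
Each cell is 1 gene in 1 library, as log2 CPM minus the mean of the 3 wildtype libraries, with genes in pathway order on the vertical axis and libraries on the horizontal axis (blue lower, red higher, an asterisk for libraries with more than 1% of counts on Gm42418). The rows from Mvk to Nsdhl are mostly blue across the 6 mutants, and Hmgcs1, Lss and the SREBP rows other than Scap are mixed. Scap is red in all mutants but mutant 1, and Fasn and Scd2 are red.

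The falls were modest. They ran from 1.22-fold for Sqle to 1.67-fold for Tm7sf2, and 2 of the 9 passed at an adjusted p under 0.01. The number of calls leaned on single libraries. Without wildtype 1 only Fdps of the 28 genes was called, lower, and 1.45% of all tested genes were called lower. Without wildtype 3 the genes called lower were Fdps, Sqle and Tm7sf2, against 5.07% of all genes. In the fits without wildtype 2 or mutant 3, 5 or 6, the count called lower was 5 each, against 7.35% to 8.73% of all genes. In bulk tissue, fewer cells of a type and less RNA per cell cannot be told apart.

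**Figure D2:**
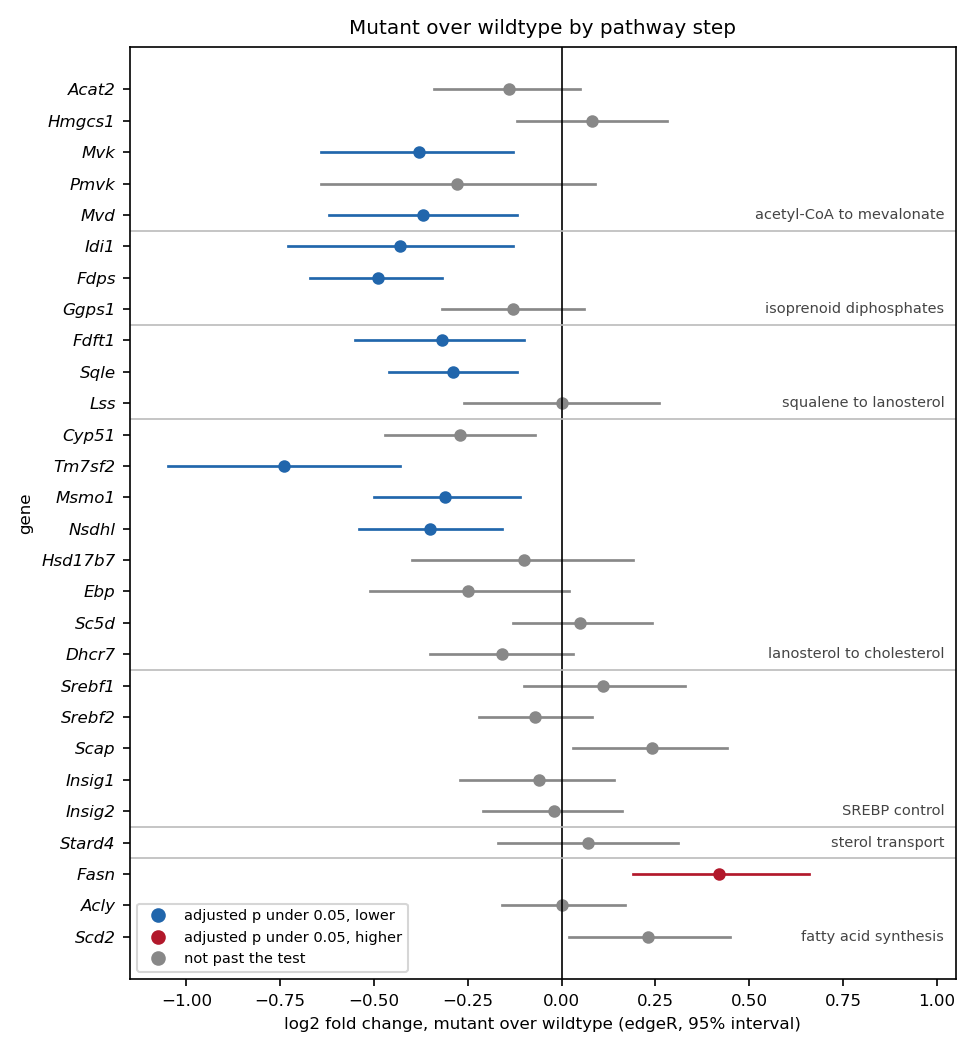
Points are edgeR log2 fold changes of mutant over wildtype and bars their 95% intervals, with the 28 genes in pathway order on the vertical axis. The 9 blue points, past the test and lower, lie between -0.74 and -0.29, and the red point, Fasn, at 0.42.

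The pathway opens with the condensation of acetyl-CoA by Acat2, the HMG-CoA synthase Hmgcs1, the kinases Mvk and Pmvk and the decarboxylase Mvd. Mevalonate kinase (Mvk, ENSMUSG00000041939, chromosome 5, 114444269 to 114460591 of GRCm38) had 34.5, 29.5 and 32.1 CPM in wildtypes 1 to 3, and 20.2 at the lowest, 24.6 at the median and 30.4 at the highest in the 6 mutants. The highest mutant, mutant 2, lay within the wildtype range and the other 5 below it. Mvk fell 1.3-fold (log2 -0.38, SE 0.119, edgeR adjusted p = 0.0344). Mvd (ENSMUSG00000006517, chromosome 8, 122433601 to 122443422), whose product makes isopentenyl diphosphate, had 37.1, 38.5 and 36.2 CPM in wildtype and 22.3, 28.8 and 35.4 at the lowest, median and highest in mutants. All mutants lay below all wildtypes, mutant 4 lowest and mutant 2 close to the wildtype range. Mvd fell 1.29-fold (log2 -0.37, SE 0.12, edgeR adjusted p = 0.0401). The call of Mvk was lost in fits without wildtype 1, wildtype 3 or mutant 3, 5 or 6 (edgeR adjusted p from 0.0133 to 0.187 with single libraries left out). Mvd lost it without any 1 wildtype or mutant 3, 5 or 6 (0.016 to 0.14), and both lost it once exon length was removed (0.0616 and 0.153).

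The other early genes did not pass the test. Acat2 averaged 40.4 ± 2.94 CPM (SD, n = 3) in wildtype and 36.6 ± 2.58 (SD, n = 6) in mutant, with a 95% interval of the log2 fold change from -0.34 to 0.05. Pmvk, the phosphomevalonate kinase gene, averaged 13.9 ± 1.64 and 11.4 ± 2.3 CPM, with an interval from -0.64 to 0.09, which still holds a fall as large as that of Mvk. Hmgcs1 stood at 155 ± 1.94 and 163 ± 21.4 CPM, with an interval from -0.12 to 0.28, so a fall of the size seen for Mvd lies outside it. The difference between Hmgcs1 and the other genes of this stretch was not tested.

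Isoprenoid diphosphates are the branch point to ubiquinone, dolichol and prenylated proteins as well as to sterols. The farnesyl diphosphate synthase gene Fdps (ENSMUSG00000059743, chromosome 3, 89093588 to 89101959, minus strand) had 78.3, 73.9 and 69.6 CPM in wildtypes 1 to 3, and 48.7, 51.9 and 57.2 at the lowest, median and highest in mutants. The groups did not overlap, and wildtype 3 and mutant 2 were the nearest libraries. Fdps fell 1.41-fold (log2 -0.49, SE 0.0822, edgeR adjusted p = 0.00188) and was the gene of the set that kept its call whichever library was left out, with an adjusted p from 0.00133 to 0.0242. The annotation gives it 1124 exon bases in common with the gene model Gm43738 on the same strand, which was not analysed here. The isomerase gene Idi1 (ENSMUSG00000058258, chromosome 13, 8885501 to 8892451) had 35.8, 30 and 28.5 CPM in wildtype and 17.7, 23.4 and 31.2 in mutants. Here the groups overlapped, since mutant 1 lay within the wildtype range. Idi1 fell 1.35-fold (log2 -0.43, SE 0.144, edgeR adjusted p = 0.0457), and this call held in 2 of the 9 fits that left out a library (adjusted p from 0.00865 to 0.261), those without mutant 1 or 4. Idi1 has 323 exon bases in common with Gm48574 on the other strand, also not analysed here. Ggps1, which makes the geranylgeranyl diphosphate used to prenylate proteins, averaged 34.4 ± 0.211 and 31.4 ± 2.3 CPM. It did not pass the test, though all 6 mutants lay below the 3 wildtypes, and its interval ran from -0.32 to 0.06.

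Squalene synthase, epoxidase and cyclase commit the pathway to sterols. Fdft1, the squalene synthase gene (ENSMUSG00000021273, chromosome 14, 63145150 to 63179578, minus strand), had 67.3, 67.4 and 64.2 CPM in wildtype and 44.8, 53.7 and 63.3 in mutants, with all mutants below the wildtypes and mutant 1 near them. It fell 1.25-fold (log2 -0.32, SE 0.105, edgeR adjusted p = 0.0402). The annotation gives Fdft1 774 exon bases in common with the abundant cathepsin gene Ctsb on the other strand, and the sources used here do not say if reads were counted by strand. Ctsb averaged 918 CPM in wildtype and 1010 in mutant and did not pass the test. Sqle, the squalene epoxidase gene (ENSMUSG00000022351, chromosome 15, 59315077 to 59331192), had 109, 123 and 103 CPM in wildtype and 82.2, 93.3 and 97.2 in mutants, without overlap. Sqle fell 1.22-fold (log2 -0.29, SE 0.0804, edgeR adjusted p = 0.0217). Lss, the lanosterol synthase gene, averaged 27.7 ± 1.91 CPM in wildtype and 27.7 ± 4.38 in mutant, and its interval of -0.26 to 0.26 does not hold the estimates for Fdft1 and Sqle. With exon length removed, a correction described further on, Lss was at -0.22 (edgeR adjusted p = 0.209). Fdft1 lost its call without any 1 wildtype or mutant 3, 5 or 6 (edgeR adjusted p from 0.0135 to 0.155), and Sqle without wildtype 1 or 2 (0.017 to 0.115).

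The last stretch turns lanosterol into cholesterol through 8 of the genes, of which 3 fell. Tm7sf2, a sterol reductase acting just after the demethylase Cyp51, showed the largest change of the 28. Tm7sf2 (ENSMUSG00000024799, chromosome 19, 6062821 to 6068373, minus strand) had 26.2, 18.4 and 20.3 CPM in wildtypes 1 to 3, and 10.9, 12.2 and 16.5 at the lowest, median and highest in mutants. All mutants lay below all wildtypes, and wildtype 1 stood well above the other two. Tm7sf2 fell 1.67-fold (log2 -0.74, SE 0.146, edgeR adjusted p = 0.00428). Without wildtype 1 its log2 fold change was -0.57 and it missed the threshold (edgeR adjusted p = 0.059, the highest over the libraries left out, with 0.00183 the lowest). It has 532 exon bases in common with Vps51 on the same strand, and the CPM of Vps51 was 28.4 in wildtype and 26.1 in mutant (not past the test).

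Msmo1 and Nsdhl act together to strip methyl groups from the sterol ring. The methylsterol oxidase gene Msmo1 (ENSMUSG00000031604, chromosome 8, 64718139 to 64733792, minus strand) had 135, 121 and 126 CPM in wildtype and 81.4, 106 and 111 in mutants, without overlap, and mutant 3 stood apart as the lowest. Msmo1 fell 1.24-fold (log2 -0.31, SE 0.0916, edgeR adjusted p = 0.0277). Nsdhl (ENSMUSG00000031349, chromosome X, 72918557 to 72958514), the sterol dehydrogenase gene, had 49.1, 44.5 and 46.4 CPM in wildtype and 31.7, 37.3 and 39.4 in mutants, again without overlap. Nsdhl fell 1.27-fold (log2 -0.35, SE 0.0911, edgeR adjusted p = 0.0153). Both lost their calls without wildtype 1 or 3, with adjusted p from 0.0185 to 0.156 for Msmo1 and from 0.013 to 0.104 for Nsdhl across the single-library omissions.

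Cyp51 was near the threshold. It averaged 120 ± 8.04 CPM in wildtype and 99.7 ± 11.5 in mutant, all mutants lay below all wildtypes, and the edgeR adjusted p was 0.0597. DESeq2, limma-voom and the fit with exon length removed called it lower. The 4 remaining genes did not pass. The sterol isomerase gene Ebp averaged 25.5 ± 1.44 and 21.4 ± 3.13 CPM, and Dhcr7, whose product performs the final reduction of one route, 61 ± 7.55 and 54.6 ± 2.19. The keto-reductase gene Hsd17b7 averaged 18.1 ± 2.61 and 16.8 ± 2.25 CPM, and the desaturase gene Sc5d 43.9 ± 1.68 and 45.6 ± 3.19. Their intervals on the log2 scale were -0.51 to 0.02, -0.35 to 0.03, -0.4 to 0.19 and -0.13 to 0.24 in that order.

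**Figure D3:**
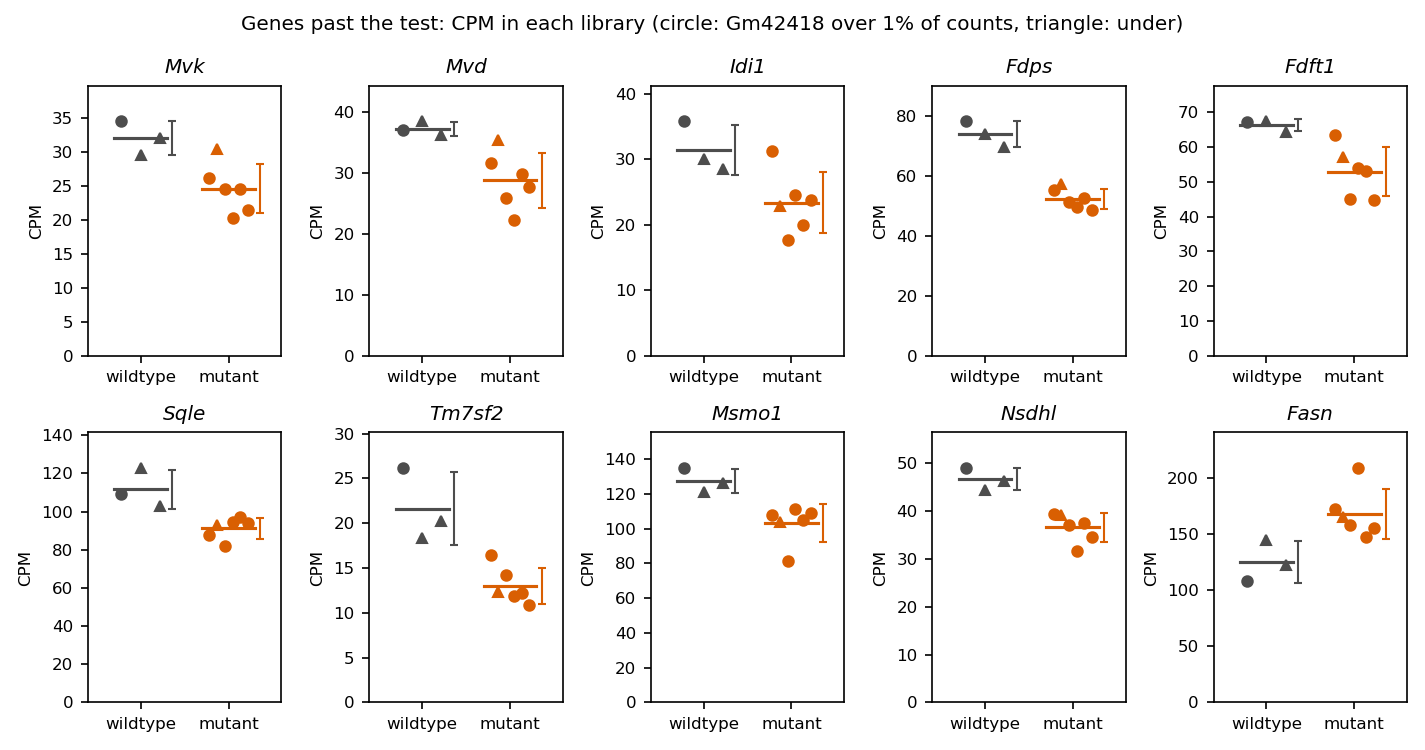
CPM (vertical axes, from 0) of the 10 genes past the test in each wildtype and mutant library, with horizontal lines at the group means and bars of 1 SD (n = 3 and n = 6). Circles are libraries with more than 1% of counts on Gm42418 and triangles those with less, and for Mvk and Mvd the highest mutant point is the triangle of mutant 2.

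None of the 5 SREBP control genes passed the test in edgeR or DESeq2, with 1 of them, Scap, at an unadjusted p under 0.05 and called higher by limma-voom. Srebf2 had 197, 220 and 198 CPM in wildtypes 1 to 3 and 186, 193 and 211 at the lowest, median and highest in mutants. The groups overlapped, and the log2 interval of -0.22 to 0.08 does not hold a fall as large as that of Fdps. Srebf1 had 79.5, 90 and 79.2 CPM in wildtype and 78.1, 89.7 and 104 in mutants, with overlap and an interval of -0.1 to 0.33. The counts do not separate its alternative starts.

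Scap, the sterol-sensing escort of both factors, had 50.3, 53.5 and 56.5 CPM in wildtype and 52.5, 63.9 and 69.1 in mutants. Of the 6 mutants 5 lay above every wildtype, mutant 1 being the exception, and the edgeR adjusted p was 0.0951 (log2 0.24, SE 0.0968). Leaving out mutant 1 brought Scap past the threshold (adjusted p = 0.0328, with a range up to 0.326 over the libraries left out). Scap is a long gene, in a length bin where 19.7% of all genes were called higher, and with exon length removed its log2 fold change was 0.09 (edgeR adjusted p = 0.531). Insig1, itself a target of the SREBPs and so a common readout of their activity, had 158, 132 and 138 CPM in wildtype and 115, 135 and 157 in mutants. The groups overlapped, with mutants 3 and 6 below every wildtype, and the interval was -0.27 to 0.14. Insig2, its relative that answers to other signals, had 64.7, 50.3 and 60.8 CPM in wildtype and 55.8, 57.6 and 59.6 in mutants, so that every mutant lay inside the wildtype range. Stard4, which moves sterol between membranes inside the cell, averaged 46.1 ± 7.65 and 48.3 ± 4.77 CPM, with an interval of -0.17 to 0.31.

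Fatty acid synthesis starts from cytosolic acetyl-CoA made by Acly, which Fasn extends to palmitate and Scd2 desaturates once lengthened. Fasn (ENSMUSG00000025153, chromosome 11, 120805846 to 120824547, minus strand) had 108, 145 and 122 CPM in wildtypes 1 to 3 and 147, 162 and 209 at the lowest, median and highest in mutants. The nearest libraries, wildtype 2 and mutant 5, almost met, and mutant 4 was highest. Fasn rose 1.34-fold (log2 0.42, SE 0.111, edgeR adjusted p = 0.0158), a call it lost without wildtype 1 or 3 (adjusted p from 0.00853 to 0.128 over the libraries left out). Scd2, the most abundant of the 28, averaged 782 ± 44.6 CPM in wildtype and 920 ± 104 in mutant (edgeR adjusted p = 0.11, interval 0.02 to 0.45), and limma-voom called it higher. Acly averaged 221 ± 10.8 and 222 ± 16.7 CPM, with an interval of -0.16 to 0.17, so that neither a fall like that of Fdps nor a rise like that of Fasn lies inside it. The sterol and fatty acid genes were not tested against each other.

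Fold change went with gene length across the whole data set, and this touches the genes here. Among 15751 tested genes with a length, the median log2 fold change ran from -0.32 in the shortest of 10 equal length bins to 0.25 in the longest, with a Spearman correlation of 0.43 across genes, which share the same libraries. Across the 28 genes it was 0.57, a description over genes measured in the same samples. Fasn, with 10947 exon bases, lies in the longest bin, where 29% of genes were called higher, and once exon length was removed its log2 fold change was 0.2 (edgeR adjusted p = 0.115). Mvd, with 1859 exon bases, lies in a bin where 20.3% of genes were called lower, and Mvk and Nsdhl in one where 14.9% were. Fdps, Fdft1, Tm7sf2, Sqle and Msmo1 are of middle length or longer, in bins whose medians ran from -0.03 to 0.11, and were lower by as much or more after the correction. With exon length removed, Fdps was at -0.51 (adjusted p = 0.000558), Tm7sf2 at -0.76 (0.00211), Sqle at -0.37 (0.00395), Msmo1 at -0.41 (0.00441) and Fdft1 at -0.34 (0.0298) in the edgeR fit. In that fit 7 of the 28 genes were called lower, against 8.92% of all genes, and Idi1 joined Mvk and Mvd in losing its call (0.0699).

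**Figure D4:**
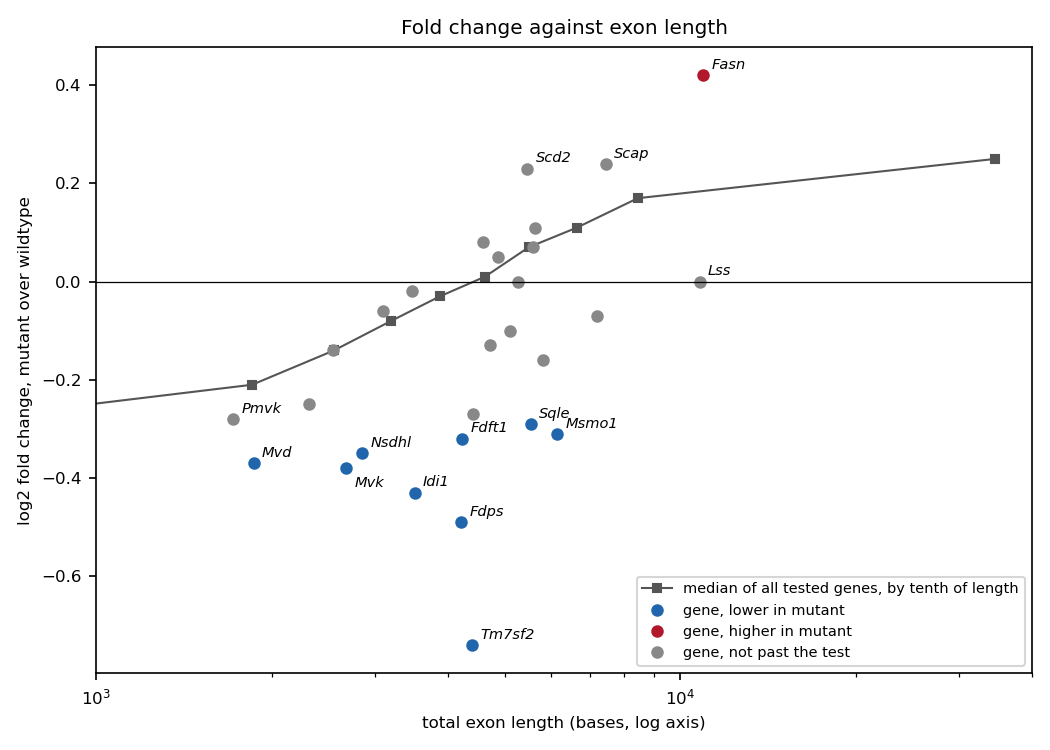
The log2 fold change of mutant over wildtype (vertical axis) against total exon length in bases (horizontal log axis) for the 28 genes, with grey squares for the median of all tested genes in each of 10 length bins (the shortest bin lies left of the axis). Tm7sf2, Fdps, Idi1, Sqle and Msmo1 lie below the grey line by more than 0.3, and Fasn lies above it.

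The split on Gm42418 was looked at in the same way. Within the 6 libraries of high share, all 5 mutants lay below wildtype 1 for 18 of the 28 genes (64.3%), against 30.5% of all tested genes. They lay above it for 3 (10.7%, against 29.1%). Within the 3 libraries of low share, mutant 2 lay below wildtypes 2 and 3 for 14 genes (50%), against 35.3% of all tested genes, and above for 7 (25%, against 35.9%). These comparisons hold 1 library on one side and carry no test. The 9 genes called lower were called over these same libraries, so their differences on each side of the split are a description. For Tm7sf2 the log2 differences were -1.01 and -0.65, for Fdps -0.6 and -0.33, for Idi1 -0.64 and -0.35 and for Sqle -0.26 and -0.27. For Mvk they were -0.57 and -0.02 and for Mvd -0.44 and -0.07, close to 0 in the low libraries. Insig1 changed sign, at -0.27 and 0.22. Fasn was higher on both sides, by 0.62 and 0.32. With the split as a covariate, edgeR called Fdps (adjusted p = 0.0087) and Tm7sf2 (0.00757) lower and Fasn (0.0316) higher among the 28, against 5.93% of all genes in each direction.

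**Figure D5:**
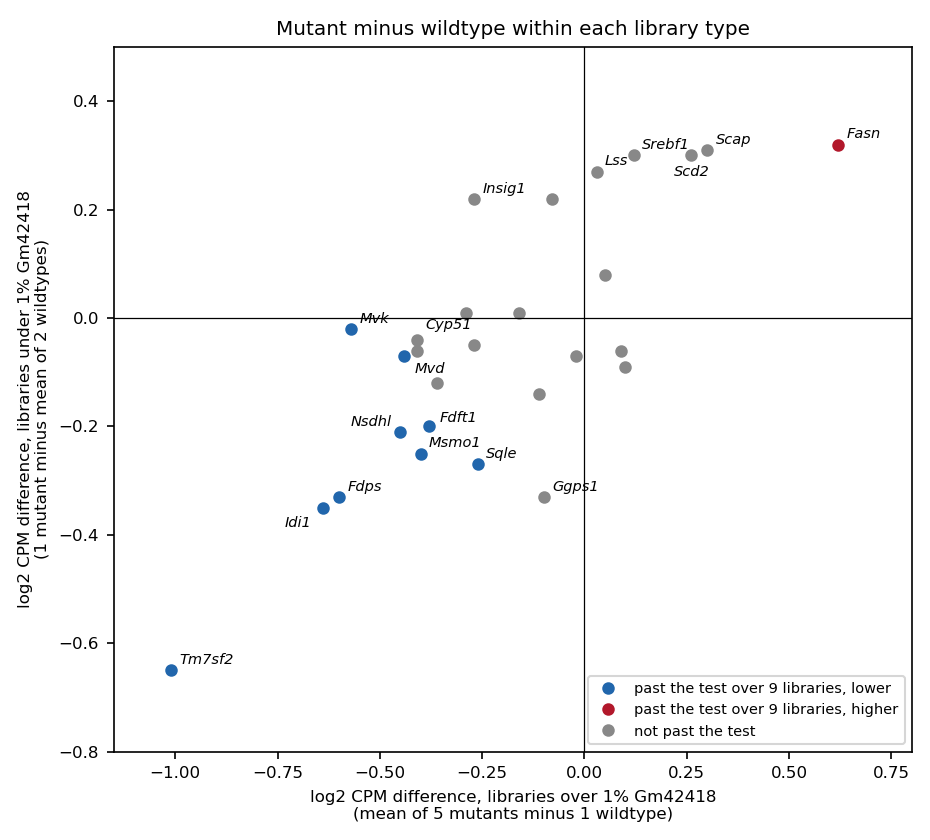
Each point is 1 of the 28 genes, with the log2 CPM difference of 5 mutants over 1 wildtype in libraries above 1% Gm42418 on the horizontal axis and that of 1 mutant over 2 wildtypes in libraries below 1% on the vertical axis. The 9 blue points lie at the lower left, with Mvk and Mvd near the horizontal zero line, and Fasn lies at the upper right.

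SREBPs bind sterol regulatory elements in promoters, next to sites of the general factors NF-Y and Sp1. RefSeq promoter windows of GRCm38.p6, 300 bases long and mostly before each start, covered 23 of the 28 genes, with 31 windows. Fdps, Fdft1, Sqle, Stard4 and Scd2 had none. The element TCACNCCAC, searched on both strands, lay in the window of 1 gene, Hmgcs1, which is 3.23% of the 31 windows, and in 1.24% of all 32851 windows. With at most 1 mismatch to TCACCCCAC it lay in those of 5 genes, Acat2, Hmgcs1, Nsdhl, Hsd17b7 and Srebf2, or 16.1% of the 31 windows against 9.82% of all. Of these 5, Nsdhl fell and the other 4 did not pass the test. CCAAT, the NF-Y box, lay on either strand in the windows of 21 of the 23 genes, or 71.0% of their windows against 37.4% of all. GGGCGG, the Sp1 box, lay in those of 20 genes, or 77.4% of windows against 35.7%. The E-box CACGTG, to which SREBPs can also bind, lay in windows of 5 genes, none of them called lower, or 19.4% of windows against 7.15%. A match of letters is a description and not a bound site.

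Stretches before the start are shown for the gene with the exact element (Hmgcs1), for Nsdhl and Srebf2 with an element of 1 mismatch, and for the genes with the largest fall (Tm7sf2) and the rise (Fasn), in whose windows no such element was found. Capitals mark the element and the CCAAT or ATTGG boxes, 2 of which overlap in Fasn.
Hmgcs1, chr13:119690201-119690320, plus strand: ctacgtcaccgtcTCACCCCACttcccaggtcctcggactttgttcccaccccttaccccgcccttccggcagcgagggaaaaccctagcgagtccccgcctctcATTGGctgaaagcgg
Nsdhl, chrX:72918311-72918430, plus strand: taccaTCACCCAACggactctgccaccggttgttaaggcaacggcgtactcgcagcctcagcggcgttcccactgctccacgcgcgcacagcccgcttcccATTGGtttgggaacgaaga
Srebf2, chr15:82147099-82147218, plus strand: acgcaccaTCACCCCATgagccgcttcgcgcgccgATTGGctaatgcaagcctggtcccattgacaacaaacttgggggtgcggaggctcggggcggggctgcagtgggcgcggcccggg
Tm7sf2, chr19:6067861-6067980, minus strand: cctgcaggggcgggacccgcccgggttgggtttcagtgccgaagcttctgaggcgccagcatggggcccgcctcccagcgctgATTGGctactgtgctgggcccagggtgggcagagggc
Fasn, chr11:120824558-120824677, minus strand: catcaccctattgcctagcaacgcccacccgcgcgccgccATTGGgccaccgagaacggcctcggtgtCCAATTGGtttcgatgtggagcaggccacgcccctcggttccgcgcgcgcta
The elements lie 137 to 129 bases before the start in Hmgcs1, 205 to 197 in Nsdhl and 162 to 154 in Srebf2. In Hmgcs1, which held the exact element, CPM did not differ past the test.

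Of 87 further genes tested from lists of related lipid pathways, 7 fell and 9 rose, shares close to the 9.47% and 9.7% of all tested genes. In a mixed list of other SREBP targets, sterol steps and nearby lipid genes, 2 of 14 genes fell (14.3%) and 1 rose (7.14%). These are therefore not shares of SREBP targets alone. Acat1, the mitochondrial acetyl-CoA acetyltransferase, had 191 ± 28.5 CPM in wildtype and 136 ± 6.5 in mutant, a 1.4-fold fall (edgeR adjusted p = 0.00224). Tmem97, a sterol-regulated membrane protein gene, fell 1.35-fold, with means of 35.5 ± 2.37 and 26.3 ± 2.64 CPM (adjusted p = 0.00842). Mylip, a ubiquitin ligase gene that is also counted in the list of LXR targets below, rose 1.21-fold from 57 ± 1.34 to 68.8 ± 6.02 CPM (0.0432).

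Genes that cut, carry or degrade SREBPs and their partners held 2 higher and 0 lower of 15 tested in edgeR, with 5 at an unadjusted p under 0.05. The share called higher, 13.3%, is near the 9.7% of all tested genes. Sec24a, a subunit of the coat of vesicles leaving the endoplasmic reticulum, rose 1.45-fold from 14.7 ± 0.342 to 21.4 ± 2.55 CPM (edgeR adjusted p = 0.00753), and its relative Sec24c 1.17-fold. Rnf139, a ubiquitin ligase, averaged 82.9 ± 16.1 and 67.5 ± 6.33 CPM and did not pass. Of 27 tested genes for fatty acid supply, elongation and desaturation, 1 rose (3.7%) and 3 fell (11.1%), near or below the shares of all tested genes. The elongase gene Elovl7 rose 1.32-fold from 28.2 ± 2.3 to 37.3 ± 2.48 CPM (0.00939). Thrsp, a regulator of lipid synthesis, had 6.05 ± 1.1 CPM in wildtype and 3.36 ± 0.759 in mutant, a 1.8-fold fall (0.0127). Hsd17b12, of the elongation cycle, fell 1.19-fold (0.0198), and Hacd1, which acts in the same cycle, was the remaining gene called lower (0.0243), named after its values were seen.

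In the branches from isoprenoids, 2 of 14 genes fell and 0 rose (edgeR, with 3 at an unadjusted p under 0.05), and in a list this small 14.3% is near the 9.47% of all tested genes. Coq2, of ubiquinone synthesis, had 43.9 ± 4.08 CPM in wildtype and 31.4 ± 3.72 in mutant, a 1.4-fold fall (adjusted p = 0.0072). The farnesyltransferase subunit gene Fnta fell 1.23-fold, from 92.1 ± 2.78 to 74.7 ± 4.17 (0.0125). Zmpste24, a protease of prenylated proteins, averaged 66.6 ± 2.85 and 76.2 ± 5.93 CPM and did not pass. Of 13 tested genes for sterol esterification, oxysterols and transport, 5 had an unadjusted p under 0.05 in edgeR. Past the adjusted test 3 rose (23.1%, against 9.7% of all tested genes) and 0 fell (against 9.47%). These were the sterol acyltransferase gene Soat1, up 1.3-fold (edgeR adjusted p = 0.0075), Npc1, which exports sterol from lysosomes, up 1.42-fold (0.0099), and the oxysterol-binding protein gene Osbp, up 1.28-fold (0.0132).

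LXR receptors answer to oxysterols when sterol is plentiful. Of 9 listed receptors and targets 3 rose (33.3%) and 0 fell (edgeR, 5 at an unadjusted p under 0.05). Over all tested genes 9.7% rose and 9.47% fell. The efflux pump gene Abca1 had 53.2, 70.1 and 60.9 CPM in wildtypes 1 to 3 and between 106 and 160 in mutants, and Abcg1 14.3, 17.9 and 14.1 in wildtype and between 27.9 and 38.7 in mutants. They rose 2.06-fold and 2.15-fold (edgeR adjusted p = 0.000122 and 8.07e-05), and Mylip, listed here too, was the third. The other 6, Abcg4, Nr1h2, Nr1h3, Lpcat3, Apoe and Abca7, did not pass, and 4 of the 9 had a negative log2 fold change. Apoe averaged 1280 ± 55.1 CPM in wildtype and 1270 ± 267 in mutant (log2 -0.02). Of the genes called in these lists, Abca1, Abcg1 and Acat1 kept their calls without wildtype 1 (0.00227, 0.0019 and 0.0291) and were the only 3 called in that fit, which tested 89 of these genes. The others lost theirs there, with adjusted p from 0.0561 for Sec24a to 0.208 for Sec24c. Without wildtype 3, Sec24c, Mylip, Fnta and Hacd1 also lost theirs (0.0943, 0.0988, 0.0609 and 0.0795). Mylip lost it too without wildtype 2 or mutant 1, 3, 5 or 6, and Sec24c without mutant 1, 2, 3 or 5. With exon length removed, calls were lost by Sec24a (0.0659), Sec24c (0.268), Tmem97 (0.0988), Hsd17b12 (0.159), Fnta (0.0523), Soat1 (0.0986) and Npc1 (0.0718) in the edgeR fit. With the Gm42418 split as a covariate, Sec24c (0.0772) and Mylip (0.135) lost theirs.

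Cell type markers moved with genotype in the same libraries. The summed CPM of 6 keratocyte markers ran from 8970 to 11700 in wildtype and from 6630 to 8970 in mutant, with 3 of 6 lower. That of 6 macrophage markers ran from 155 to 168 and from 252 to 385, with 4 of 6 higher. Among them Lyz2 rose most in CPM, from 30.9 to 142, while Csf1r (43.6 and 48.2) and C1qa (52.3 and 56.9) did not pass. The sum of 5 blood vessel markers ran from 330 to 381 and from 451 to 552, with 4 higher. That of 5 red cell markers ran from 493 to 870 and from 1690 to 8290, with 3 higher. Over all tested genes edgeR called 9.47% lower and 9.7% higher. The part of these marker differences in the sterol gene values was not tested. Markers of cells rich in lipid synthesis were low or overlapped between groups. Adipocyte markers summed to 2.48 to 3.07 CPM in wildtype and 2.53 to 3.22 in mutant, with Adipoq, Plin1, Cidec and Pparg under 1 CPM. Gland markers summed to 49.5 to 63.2 and 49 to 78.8, nearly all of it Scd1, with Elovl3, Awat2 and Cidea under 1 CPM. Schwann cell and myelin markers summed to 239 to 268 and 240 to 288 CPM, with 1 of 6 higher, and markers of dividing cells to 362 to 384 and 286 to 448, with 0 of 6 called (edgeR).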

How the data were processed

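RNA was sequenced from anterior segments of 3 wildtype and 6 mutant samples. What the authors deposited is a table of unnormalised counts, with Ensembl genes in rows and samples in columns. STAR 2.6.1, HTSeq 0.6.1, DESeq2 1.6.3 and GRCm38 (mm10) were used, per the submitters' processing notes, with no roles given. The sources used here give neither annotation release nor strand setting. Symbols, positions and exon lengths came from GENCODE for GRCm38, which held 34490 of 35275 identifiers. Genes without a symbol took at most 0.069% of counts.

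Genotypes were compared with edgeR 4.0.16 in R 4.3.3, using TMM scaling, default filter by group, robust quasi-likelihood fit with genotype alone, and Benjamini-Hochberg adjustment over 15825 genes. CPM use TMM library sizes, and the log CPM a prior count of 2. Intervals are 95%. A standard error is the absolute log2 fold change over the square root of F. The genes and lists were chosen with earlier results of these data known. All 28 genes are described, with per-library values for those past the test and the SREBP control genes. Up to 3 genes of lowest p are named per further list. Hacd1 and the 6 genes of the LXR list not past the test, outside this rule, were named after their values were seen. Alternatives were other scalings, DESeq2 1.42.0, limma-voom 3.58.1, other filters and thresholds, a replicate block, exon length removed (mgcv 1.9.3), the Gm42418 split, and each library left out. The fit was also run on counts simulated from its own means and dispersions. These held neither the Gm42418 split nor the trend with length, so that run does not check the calls against either. Within each group, libraries differed beyond counting noise (chi-square per degree of freedom of at least 15.7). Some genes of the further lists are not reported here.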

Additional observations from a re-analysis of the deposited data

Results flagged for a closer look

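In the 6 mutants, 3 values stood apart from the other 5 by more than the 95% limit of Dixon's gap test. All 28 genes were looked at, and chance flags about 1 in 20 such groups. Hmgcs1 in mutant 4 was at 205 CPM, with the other mutants at 146 to 162, and without mutant 4 its log2 fold change was 0 in place of 0.08. Pmvk in mutant 4 was at 7.02 CPM, with the others at 11.2 to 13.3, and without mutant 4 its log2 fold change was -0.17 in place of -0.28. Msmo1 in mutant 3 was at 81.4 CPM, with the others at 104 to 111, and without mutant 3 it was still called lower, at -0.25 (edgeR adjusted p = 0.0385).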

How the results depend on the processing

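Of 28 genes, 9 were called lower and 1 higher, and 22 alternatives were run. The count of lower genes was 2 at an adjusted p under 0.01, where 3.24% of all tested genes were called lower. It was 1 in a test against a fold of 1.2 (0.979% of all) and 2 with the Gm42418 split as a covariate (5.93%). With each library left out it ran from 1 to 10, against 1.45% to 10% of all genes. The count of higher genes was 3 with limma-voom, where 14.9% of all tested genes were called higher. It was 0 at an adjusted p under 0.01 (3.29% of all), 0 against a fold of 1.2 (1.35%) and 0 with exon length removed (5.36%). At an unadjusted p under 0.05 these edgeR fits held 3, 1 and 1 higher genes. With each library left out the count of higher genes ran from 0 to 2, against 1.88% to 10.8% of all genes. Of 87 further lipid genes, 7 were called lower and 9 higher, near the 9.47% and 9.7% of all tested genes. Their lower count was 12 with limma-voom, against 14.8% of all tested genes. It was 3 at an adjusted p under 0.01 (3.24% of all) and 0 against a fold of 1.2 (0.979%, edgeR, 5 unadjusted). With each library left out it was 1 to 9, against 1.45% to 10% of all genes. Their higher count was 15 with limma-voom (14.9% of all) and 2 against a fold of 1.2 (1.35%). With each library left out it was 2 to 10, against 1.88% to 10.8% of all genes. None of the 10 genes called changed direction under these alternatives. The causes were not tested, beyond fewer libraries, stricter thresholds and a test against a larger fold being built to call less. Replicate numbers did not pair the samples (correlations of deviations of 0.09, 0.03 and -0.1 for numbers 1 to 3). With a replicate block 4 of the 28 genes were called lower and 1 higher, and 6 and 6 of the further genes. Over all tested genes 4.24% were called lower and 5.14% higher in that fit. Only numbers 1 to 3 occur in both genotypes, so its genotype effect rested on wildtypes and mutants 1 to 3. Libraries of a group differed beyond counting noise, and pools and library preparation cannot be told apart as its source.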
